A study of Mus musculus with 35 samples.

Results

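The prostaglandin synthesis and receptor genes followed here are 10 mouse genes, taken by symbol from the 4 count tables of the series. They are Pla2g4a, Ptgs1, Ptgs2, Ptges, Ptgis, Ptgds, Hpgd, Ptger2, Ptger4 and Ptgfr, and all 10 are among the 55487 genes of every table. Primary cardiac fibroblasts (CFs) from adult mice, plated on collagen and kept in serum, were transfected with a control siRNA (si-NC) or with either of 2 siRNAs against IAMP (si-IAMP-1 and si-IAMP-2). IAMP is a micropeptide encoded by 4930523C07Rik. The CFs were left untreated, given IL-17 or given TGF-β, with 3 RNA-Seq libraries in each of these 9 groups. The labels give 24 h of siRNA and then 24 h of IL-17. For the untreated and TGF-β cells they state no times of their own and no TGF-β dose. The study gives a TGF-β dose for other assays of these cells, and whether the libraries had the same was not stated there. Whole hearts at basal conditions came from 8-week-old C57BL/6 mice, 4 heterozygous for a CRISPR-Cas9 frameshift in IAMP (Het) and 4 homozygous (KO), so the controls carry 1 mutant allele. Nothing in the labels says that the libraries of a group came from separate animals or cultures of CFs, so the p values for CFs measure only the spread between these libraries.

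Prostanoids are made from arachidonic acid, which cytosolic phospholipase A2 (Pla2g4a) frees from membranes. The cyclooxygenases Ptgs1 and Ptgs2 turn it into prostaglandin H, the first of them mostly constitutive and the other induced by cytokines and growth factors. Terminal synthases then give prostaglandin E (Ptges), prostacyclin (Ptgis) or prostaglandin D (Ptgds), and the dehydrogenase Hpgd inactivates prostaglandins. Ptger2 and Ptger4 are receptors for prostaglandin E that couple to cyclic AMP, and Ptgfr is the receptor for prostaglandin F. In the heart, fibroblasts are a known source of prostacyclin and prostaglandin E.

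Ptgs2 (ENSMUSG00000032487, chromosome 1, 150100031 to 150108227, plus strand, GRCm38) and Ptges (ENSMUSG00000050737, chromosome 2, 30889471 to 30929863, minus strand) passed the fold threshold with IL-17, and with TGF-β they moved in opposite directions. Ptgfr passed it with IL-17 as well, but at low counts that are given below. Pla2g4a (149829618 to 149961290, minus strand) also lies on chromosome 1, with Ptgs2os between it and Ptgs2, and Hpgd lies on chromosome 8 (56294585 to 56321043, plus strand). The sequences upstream of Ptgs2 and Ptges are therefore shown. RefSeq promoters (GRCm38.p6, 250 bases before to 50 after the start) were matched for 9 of the 10 members. The 250 bases before each start are given 5′ to 3′ on the gene's strand, at chr1:150099781-150100030 and chr2:30903298-30903547, together with the first 30 bases of Ptgs2 at chr1:150100031-150100060. Capitals mark TTGCGCAA (a match to TTNNGCAA, a C/EBP-type motif), GGGGGTGACC (a match to an NF-κB-type motif, GGG and CC with 5 free bases between) and the stretch near the Ptgs2 start in which a TGACGT (cyclic AMP response type) on the minus strand overlaps a CACGTG (E-box).
Ptgs2 upstream: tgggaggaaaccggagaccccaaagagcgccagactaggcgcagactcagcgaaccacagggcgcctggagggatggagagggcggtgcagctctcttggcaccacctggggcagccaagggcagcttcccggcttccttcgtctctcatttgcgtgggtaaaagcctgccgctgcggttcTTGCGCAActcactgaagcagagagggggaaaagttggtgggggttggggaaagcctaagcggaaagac
Ptgs2 start: agagtcaccactACGTCACGTGgagtccgc
Ptges upstream: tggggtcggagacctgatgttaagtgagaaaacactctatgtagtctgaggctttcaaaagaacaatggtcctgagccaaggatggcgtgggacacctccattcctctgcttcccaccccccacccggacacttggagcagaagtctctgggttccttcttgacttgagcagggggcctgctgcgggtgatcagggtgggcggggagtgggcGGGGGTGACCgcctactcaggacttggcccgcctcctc

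The 10 motifs were searched on both strands in the 300 bases of each promoter. Some overlap by design, since a CACGTG is also an ACGTG, a TTNNGCAA is also a TTNNGNAA and a TGAGTCA is also a TGANTCA. Of the 9 members with a promoter, only Ptgs2 held TGACGT, which 7.51% of all 32851 promoters hold. The same is true of CACGTG (7.15% of all promoters) and of its core ACGTG, the hypoxia response core (19.6%). TTNNGCAA was found in Ptgs2 and Ptger2 (10.8% of all promoters). The NF-κB-type motif with 5 free bases was found in 5 members, Ptgds, Ptger4, Ptges, Ptgs1 and Ptgs2, and is held by 50.8% of all promoters. Its match in Ptgs2 (GGGGAAAGCC, −23 to −14 from the start) is left in small letters above. The variant GGGNNNNCC was found in Pla2g4a, Ptgds, Ptger4, Ptges and Ptgs2 (43.8% of all promoters), and TTNNGNAA in 7 members (40.7%). TATAAA was found in Hpgd and Pla2g4a (13.6%), and TGANTCA and TGAGTCA in Ptgds alone of the 9 (7.81% and 5.2%). Besides the promoter at its gene start, Pla2g4a had another inside the gene (149922440 to 149922689), and its TATAAA and GGGNNNNCC lay only there. The TATAAA of Hpgd lay after the start, at positions 5 to 10. These matches describe letters in a window and no binding was measured.

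The CF libraries held 114764000 to 119232000 estimated counts each in the untreated table, 114220000 to 118813000 with IL-17 and 104140000 to 108380000 with TGF-β, and the hearts 23497000 to 23857300 counts, all rounded. A CF read pair is worth about 6 estimated counts, so 18 estimated counts (3 read pairs) were taken as the detection floor in CFs and 3 counts in hearts, for counting error only. Levels are CPM, counts scaled to the library total after TMM normalization. The siRNAs lowered their target in all 3 tables. 4930523C07Rik stood at 22.05, 22.7 and 25.7 CPM in the si-NC libraries, 2.52, 3.51 and 2.98 CPM with si-IAMP-1 and 1.77, 1.87 and 1.89 CPM with si-IAMP-2, and its log2 fold changes were −2.97 and −3.69 untreated, −2.85 and −3.44 with IL-17 and −2.23 and −2.65 with TGF-β. In hearts it was at 15.9, 16.5, 18.8 and 17.03 CPM in Het and 15.4, 17.3, 15.2 and 16.3 CPM in KO, with a log2 fold change of −0.09 that did not pass, and since a frameshift need not lower the transcript, this checks no genotype. Fibroblast markers were abundant in every CF library (Col1a1 3744 ± 61.8 CPM in si-NC), whereas the cardiomyocyte gene Myh6 was listed at 0 in the 3 untreated si-NC libraries and ran from 16261 to 17792 CPM in Het hearts. The 6 cardiomyocyte markers summed to 90.5 to 98.0 CPM in those si-NC libraries, with 4 of 6 above the floor, and Tnnt2 made up most of it at 93.4 ± 4.14 CPM.

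Of the 10 members, 7 stood clear of the floor in CFs, and Ptgds, Ptger2 and Ptgfr stayed near the floor. Near the floor means here a median under 60 estimated counts (10 read pairs) over the 27 CF libraries. The other 7 are the members called above the floor throughout. Of these 7, Hpgd (167 to 191) and Ptges (225 to 277) had the fewest estimated counts in untreated si-NC libraries. Per kilobase of exon, the si-NC level was highest for Ptgis, at 171 ± 10.5 CPM per kb (SD, n = 3), followed by Ptgs2 at 57.9 ± 5.62 CPM per kb. Ptgs1 at 16.7 ± 0.821 and Pla2g4a at 15.3 ± 0.566 CPM per kb were neighbours in this order. Ptger4 came next at 5.12 ± 0.144 CPM per kb, then Hpgd at 0.864 ± 0.0716 and Ptges at 0.531 ± 0.0471 CPM per kb. Each neighbour in this order lay further from the next than their SDs summed, by the smallest margin for Ptgs1 and Pla2g4a. The order of the top pair turned under IL-17 once IAMP was knocked down. Ptgs2 was at 133 ± 5.38 CPM per kb against 174 ± 6.05 for Ptgis in si-NC, at 192 ± 11.5 against 161 ± 2.81 with si-IAMP-1, and at 221 ± 12.3 against 152 ± 3.85 with si-IAMP-2. In these IL-17 libraries, the most abundant of the 10 members per length was thus Ptgis in si-NC and Ptgs2 in both knockdowns.

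**Figure D1:**
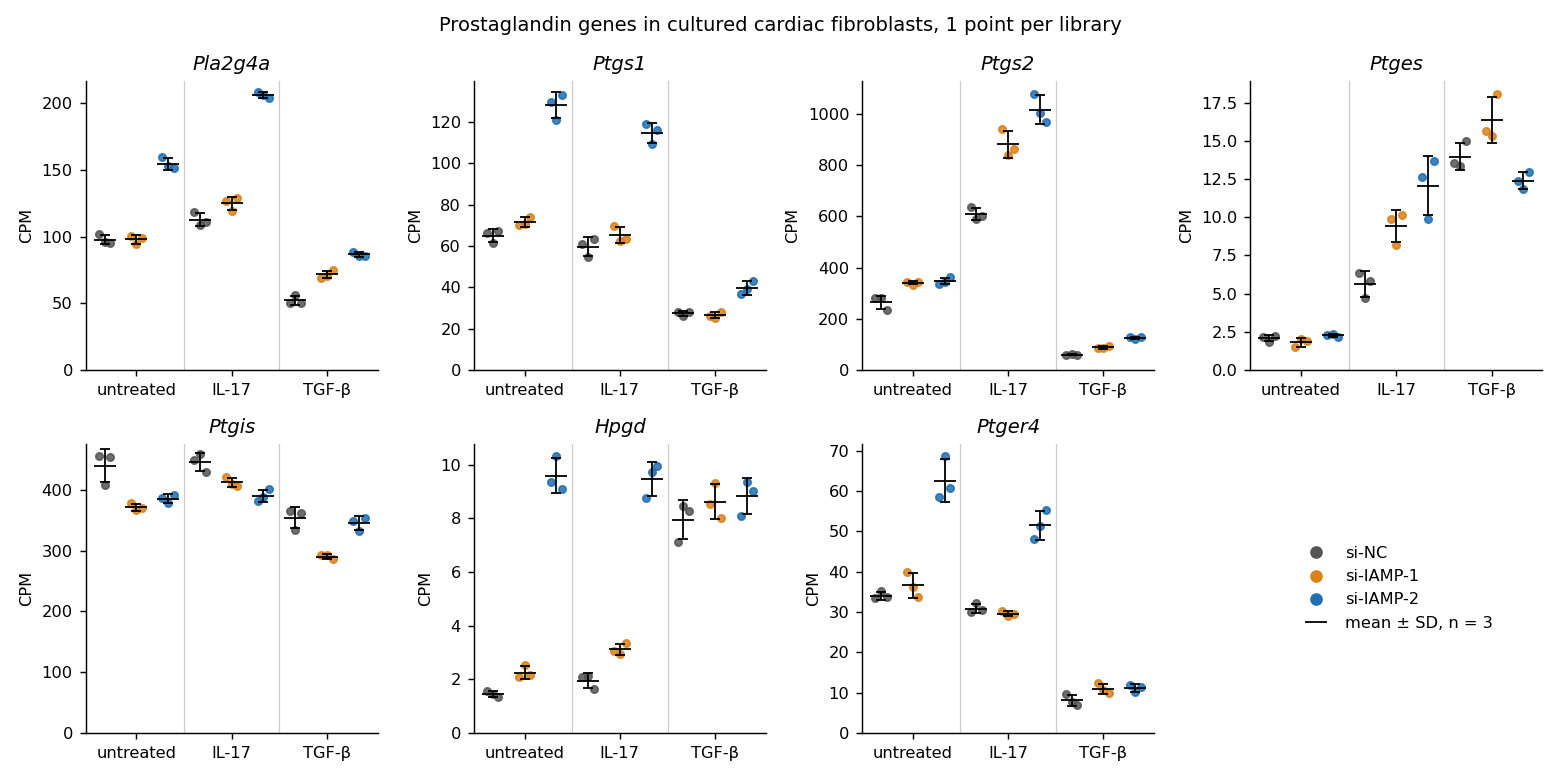
CPM of the 7 members above the floor in each CF library (points), with mean ± SD of the 3 libraries, by siRNA (colour) and table (untreated, IL-17, TGF-β). Ptgs2 reached 965.8 to 1076 CPM with si-IAMP-2 and IL-17, and Hpgd lay between 8.08 and 10.3 CPM in all si-IAMP-2 libraries.

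The first question is what each stimulus did to these genes in si-NC cells. The untreated, IL-17 and TGF-β libraries were deposited as separate tables, so stimulus and experiment cannot be told apart, and in bulk RNA a change in cell numbers and one in RNA per cell cannot be told apart either. With IL-17, transcripts of the inducible cyclooxygenase and of the prostaglandin E synthase rose. Ptgs2 was at 280.2, 279.9 and 235 CPM in the untreated si-NC libraries and at 637, 590.0 and 601 CPM with IL-17. Ptges was at 2.17, 1.88 and 2.22 CPM untreated and 6.38, 4.73 and 5.81 CPM with IL-17. For both genes every stimulated library lay above every untreated one. The log2 fold changes were 1.20 (SE 0.0593, adjusted p = 7.53e-14) for Ptgs2 and 1.43 (SE 0.125, adjusted p = 1.51e-10) for Ptges, by the quasi-likelihood test of edgeR, adjusted by Benjamini-Hochberg over all genes tested, as is every adjusted p below. Pla2g4a and Hpgd rose by less than the fold threshold, with log2 fold changes of 0.20 (SE 0.0415, adjusted p = 5.26e-04) and 0.42 (SE 0.117, adjusted p = 0.0143). Ptgs1, Ptgis and Ptger4 did not pass the test, with log2 fold changes of −0.12 (95% interval −0.24 to −0.0025), 0.02 (−0.06 to 0.10) and −0.14 (−0.33 to 0.04). In all, 3 of the 10 members passed an adjusted p of 0.05 and an absolute log2 fold change of 1, against 1.46% of all genes tested, and 5 of 10 passed the adjusted p alone, against 12.2%. The third of the 3 is Ptgfr, whose values lie near the floor and are given below.

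With TGF-β all 7 members above the floor passed the adjusted p, 2 higher and 5 lower. Ptges rose furthest, to 13.5, 13.4 and 14.98 CPM, and its log2 fold change was 2.74 (SE 0.127, adjusted p = 1.15e-18). Hpgd, which breaks prostaglandins down, was at 1.58, 1.44 and 1.34 CPM untreated and 7.12, 8.45 and 8.26 CPM with TGF-β, with a log2 fold change of 2.45 (SE 0.116, adjusted p = 2.12e-18). Ptgs2 fell to 58.3, 62.7 and 59.1 CPM (−2.14, SE 0.0619, adjusted p = 7.09e-20) and Ptgs1 from 66.3, 61.4 and 67.3 to 27.95, 26.3 and 28.03 CPM (−1.25, SE 0.0598, adjusted p = 8.12e-18). The receptor Ptger4 fell from 33.3, 35.1 and 33.6 to 9.597, 7.73 and 6.86 CPM (−2.08, SE 0.0953, adjusted p = 7.15e-17). Both cyclooxygenases and the prostaglandin E receptor were therefore lower, and the prostaglandin E synthase and the dehydrogenase higher, in every TGF-β library than in any untreated one. Pla2g4a fell by less than the fold threshold, from 97.8 ± 3.62 to 52.3 ± 3.27 CPM (SD, n = 3), with a log2 fold change of −0.90 (SE 0.0422, adjusted p = 1.33e-18), and Ptgis likewise, from 440.1 ± 26.99 to 354 ± 17.6 CPM, with −0.31 (SE 0.0378, adjusted p = 1.14e-08). Of the 10 members, 5 passed both criteria, against 20.8% of all genes, and 7 passed the adjusted p alone, against 55.5%.

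**Figure D2:**
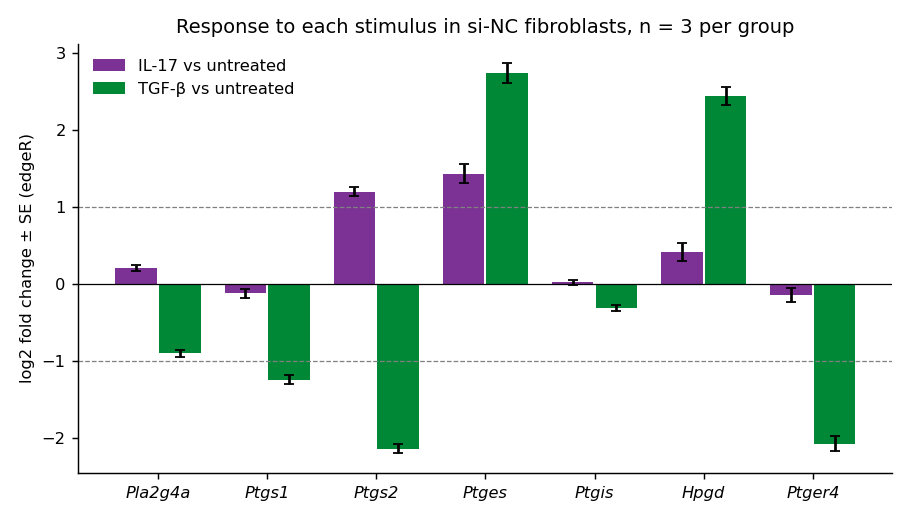
Log2 fold change (bars) with its SE for IL-17 and for TGF-β against untreated si-NC cells, 3 libraries per group, with dashed lines at the fold threshold of 1. Ptges is above the line with both stimuli, and Ptgs2 is above it with IL-17 and below it with TGF-β.

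Markers of other cell types moved with TGF-β as well. For scale, 20.8% of all genes passed both criteria with TGF-β and 55.5% the adjusted p alone. With IL-17, 12.2% passed the adjusted p alone. The summed level of 8 macrophage markers was 24.6 to 27.5 CPM in untreated si-NC libraries and 41.4 to 48.1 CPM with TGF-β, where Cd68 was the most abundant (19.7 ± 2.02 CPM) and Ptprc was at 0.948 ± 0.306 CPM. Of these 8 markers 2 (Adgre1 and Cd68) were higher and 3 (C1qa, C1qb and C1qc) lower past both criteria. The 7 endothelial markers summed to 65.4 to 71.6 CPM untreated and 114 to 115 CPM with TGF-β, and Cdh5 was the most abundant (6 of 7 higher and 1 lower by the adjusted p). The 6 mesothelial and epicardial markers summed to 141 to 157 CPM untreated and 41.3 to 47.4 CPM with TGF-β (1 of 6 higher and 5 lower by the adjusted p). The 6 mast cell markers summed to 2.84 to 3.50 CPM untreated and 5.55 to 9.08 CPM with TGF-β, led by Kit, with 2 of 4 tested higher and 1 lower past both criteria and 3 of the 6 listed at 0 with TGF-β. Tnnt2, which made up most of the cardiomyocyte list in CFs, was at 93.4 ± 4.14 and 4.76 ± 0.245 CPM. With IL-17 the macrophage sum was 26.3 to 27.6 CPM (0 of 8 markers passed the adjusted p) and the endothelial sum 61.8 to 65.4 CPM (1 of 7 lower). The mast cell sum was 3.68 to 4.59 CPM with IL-17, with 1 of 4 tested higher by the adjusted p. The 6 smooth muscle and pericyte markers summed to 102 to 116 CPM untreated and 153 to 158 CPM with IL-17 (2 of 6 higher by the adjusted p), and to 64.3 to 65.7 CPM with TGF-β. There Cspg4, the most abundant of them, went from 58.5 ± 4.39 to 29.4 ± 1.21 CPM, while 3 of the 6 were higher and 2 lower by the adjusted p, with a median log2 fold change of 1.07. The mesothelial sum was 110 to 114 CPM with IL-17 (3 of 6 lower), and Tnnt2 was at 71.8 ± 3.603 CPM. The part of such cells in the changes of the prostaglandin genes was not tested.

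The second question is what each siRNA against IAMP did. The target itself differed, with log2 fold changes of si-IAMP-2 against si-IAMP-1 of −0.72 untreated, −0.58 with IL-17 and −0.41 with TGF-β. Whether a change seen with 1 siRNA only came from the loss of IAMP was not tested. In untreated CFs the largest change among the members above the floor was in Hpgd with si-IAMP-2. Hpgd was at 1.58, 1.44 and 1.34 CPM in si-NC, 2.07, 2.51 and 2.14 CPM with si-IAMP-1 and 9.35, 10.3 and 9.08 CPM with si-IAMP-2. Every knockdown library lay above every control library, and those of si-IAMP-2 stood apart from those of si-IAMP-1. The log2 fold change was 0.62 (SE 0.125, adjusted p = 7.03e-04) with si-IAMP-1 and 2.70 (SE 0.127, adjusted p = 1.63e-11) with si-IAMP-2, and the 2 siRNAs differed from each other by 2.08 (SE 0.123, adjusted p = 5.02e-10). Ptgs1 and Ptger4 showed the same split between the siRNAs, at smaller size. Ptgs1 was at 129.8, 121 and 133 CPM with si-IAMP-2, a log2 fold change of 0.96 (SE 0.0461, adjusted p = 2.28e-11), and at 70.2, 70.6 and 74.2 CPM with si-IAMP-1, a change of 0.13 (SE 0.0461, adjusted p = 0.0281). The change with si-IAMP-2 lay just under the threshold and passed it without si-IAMP-2 replicate 2 (1.005). Ptger4 was at 58.4, 68.6 and 60.6 CPM with si-IAMP-2 (0.86, SE 0.0627, adjusted p = 4.58e-09) and at 39.8, 36.2 and 33.8 CPM with si-IAMP-1, where it did not pass (0.10, SE 0.0627, adjusted p = 0.242). Pla2g4a rose with si-IAMP-2 (0.64, SE 0.0369, adjusted p = 2.22e-10), and with si-IAMP-1 its log2 fold change was −0.0019 (95% interval −0.08 to 0.08). Against si-IAMP-1, si-IAMP-2 gave higher Ptgs1 (0.82, SE 0.0460, adjusted p = 2.53e-10), Pla2g4a (0.64, SE 0.0369, adjusted p = 3.56e-10) and Ptger4 (0.76, SE 0.0626, adjusted p = 2.94e-08).

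Ptgs2 and Ptgis changed to a like extent with either siRNA. Ptgs2 rose by a log2 fold change of 0.35 (SE 0.0572, adjusted p = 3.24e-04) with si-IAMP-1 and 0.37 (SE 0.0572, adjusted p = 1.41e-04) with si-IAMP-2. The 2 siRNAs differed in Ptgs2 by 0.02, with a 95% interval of −0.11 to 0.14. Ptgis, the prostacyclin synthase, fell by little, from 440.1 ± 26.99 CPM to 371 ± 5.93 and 386 ± 7.11 CPM (SD, n = 3), with log2 fold changes of −0.25 (SE 0.0385, adjusted p = 5.14e-05) and −0.21 (SE 0.0385, adjusted p = 2.05e-04). Ptges did not pass with either siRNA (−0.20, 95% interval −0.56 to 0.16, and 0.10, −0.25 to 0.46). At the threshold of 1 in this table, 1 of the 10 members passed with si-IAMP-1 against 4.76% of all genes, and 2 passed with si-IAMP-2 against 10.7%. Those calls were Hpgd with si-IAMP-2 and, with both siRNAs, Ptgfr near the floor. At the adjusted p alone, 5 of 10 passed with si-IAMP-1 and 7 of 10 with si-IAMP-2, against 39.9% and 49.3% of all genes. Between the siRNAs, 1 of 10 passed both criteria, against 6.65%.

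Under IL-17, Pla2g4a, Ptgs1, Ptgs2, Ptges, Hpgd and Ptger4 were higher past both criteria with si-IAMP-2, and Ptges and Hpgd with si-IAMP-1. Ptgs2 was at 939, 838 and 862 CPM with si-IAMP-1 and 1076, 1001 and 966 CPM with si-IAMP-2, all above the si-NC libraries given above. Its log2 fold changes were 0.52 (SE 0.0465, adjusted p = 4.55e-07) and 0.72 (SE 0.0466, adjusted p = 8.12e-09), on either side of the 1.5-fold threshold used for this table. Ptges was at 9.91, 8.19 and 10.2 CPM with si-IAMP-1 (0.73, SE 0.131, adjusted p = 2.49e-04) and 12.6, 9.91 and 13.7 CPM with si-IAMP-2 (1.08, SE 0.131, adjusted p = 3.00e-06). The 2 siRNAs differed from each other by 0.20 (SE 0.0463, adjusted p = 0.00291) for Ptgs2 and 0.35 (SE 0.129, adjusted p = 0.0367) for Ptges. Pla2g4a, which frees arachidonic acid, was at 118, 109 and 111 CPM in si-NC and 209, 206 and 204 CPM with si-IAMP-2, a log2 fold change of 0.85 (SE 0.0351, adjusted p = 1.66e-12). With si-IAMP-1 Pla2g4a rose by less, to 125 ± 4.97 CPM (SD, n = 3), with 0.14 (SE 0.0351, adjusted p = 0.00397). Ptgs1 rose with si-IAMP-2 (0.92, SE 0.0543, adjusted p = 4.90e-10), and with si-IAMP-1 it did not pass (0.12, 95% interval 0.0037 to 0.24). Hpgd was at 2.08, 2.12 and 1.62 CPM in si-NC, 3.06, 2.93 and 3.35 CPM with si-IAMP-1 and 8.75, 9.72 and 9.95 CPM with si-IAMP-2, with log2 fold changes of 0.67 (SE 0.122, adjusted p = 2.20e-04) and 2.27 (SE 0.122, adjusted p = 5.57e-11). The call with si-IAMP-1 depended on 1 control library, since without si-NC_IL17 replicate 3 the change was 0.56 and under the threshold. Ptger4 rose with si-IAMP-2 (0.72, SE 0.0529, adjusted p = 3.21e-09) and not detectably with si-IAMP-1 (−0.07, 95% interval −0.18 to 0.04), and Ptgis fell by little with both (−0.12, SE 0.0299, adjusted p = 0.00289, and −0.21, SE 0.0299, adjusted p = 1.02e-05). Between the siRNAs, Hpgd (1.60, SE 0.119, adjusted p = 5.56e-09), Ptgs1 (0.80, SE 0.0542, adjusted p = 3.98e-09), Ptger4 (0.79, SE 0.0530, adjusted p = 1.55e-09) and Pla2g4a (0.71, SE 0.0351, adjusted p = 2.99e-11) were higher past both criteria with si-IAMP-2, and Ptgis was lower by the adjusted p alone (−0.09, SE 0.0299, adjusted p = 0.0198).

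With IL-17, 2 of 10 members passed both criteria with si-IAMP-1, against 13.5% of all genes, and 8 of 10 with si-IAMP-2, against 21.7%. The 8 are Hpgd, Ptges, Ptgs1, Pla2g4a, Ptger4 and Ptgs2, all higher, and Ptgfr (higher) and Ptgds (lower) near the floor. At the adjusted p alone, 5 of 10 passed with si-IAMP-1 against 42.3%, and 9 of 10 with si-IAMP-2 against 50.6%. Between the 2 siRNAs, 5 of 10 passed, against 15.7% of all genes. Of these, 4 are Hpgd, Ptgs1, Ptger4 and Pla2g4a, and the fifth was Ptgds near the floor. The comparisons with the 2 siRNAs share their si-NC libraries.

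Under TGF-β the members that passed both criteria with IAMP knockdown were Ptgs2 and Pla2g4a, both with si-IAMP-2. Ptgs2 was at 85.1, 87.7 and 96.05 CPM with si-IAMP-1 and 128, 121 and 129.8 CPM with si-IAMP-2, above all si-NC libraries of that table. The log2 fold changes were 0.58 (SE 0.0472, adjusted p = 9.13e-08), just under the 1.5-fold threshold, and 1.07 (SE 0.0475, adjusted p = 3.13e-11). Pla2g4a was at 50.1, 56.1 and 50.7 CPM in si-NC, 69.4, 70.8 and 74.9 CPM with si-IAMP-1 (0.46, SE 0.0471, adjusted p = 1.51e-06) and 88.5, 85.7 and 85.9 CPM with si-IAMP-2 (0.73, SE 0.0472, adjusted p = 2.98e-09). Hpgd, already high with TGF-β, was at 8.52, 9.31 and 8.02 CPM with si-IAMP-1 and 8.08, 9.36 and 9.02 CPM with si-IAMP-2, overlapping the si-NC libraries, and its log2 fold changes of 0.12 (95% interval −0.08 to 0.32) and 0.15 (−0.05 to 0.36) did not pass. Ptger4 rose by less than the threshold with both siRNAs (0.44, SE 0.114, adjusted p = 0.00861, and 0.47, SE 0.114, adjusted p = 0.00436), as did Ptgs1 with si-IAMP-2 (0.54, SE 0.0648, adjusted p = 5.67e-06). The calls of Ptgs2 and Pla2g4a with si-IAMP-2 held with each library left out. Whether some of the other changes passed a criterion depended on single libraries. Ptgs2 with si-IAMP-1 passed the 1.5-fold threshold without si-NC_TGF replicate 2 or si-IAMP-1_TGF replicate 1 or 2 (up to 0.62), and Ptgs1 with si-IAMP-2 without si-IAMP-2_TGF replicate 1 (0.59). For Ptger4, without si-NC_TGF replicate 1 the changes were 0.59 and 0.61 and passed the 1.5-fold threshold, and without si-NC_TGF replicate 3 or si-IAMP-1_TGF replicate 1 the adjusted p with si-IAMP-1 missed 0.05 (up to 0.061). Ptges rose by little with si-IAMP-1 (0.23, SE 0.0774, adjusted p = 0.0421) and did not pass with si-IAMP-2 (−0.17, SE 0.0778, adjusted p = 0.119), and the 2 siRNAs differed from each other by −0.40 (SE 0.0777, adjusted p = 0.00103). Ptgis fell with si-IAMP-1 (−0.29, SE 0.0382, adjusted p = 2.50e-05), and with si-IAMP-2 its change was −0.04 (95% interval −0.12 to 0.04). Of the 10 members, 0 passed both criteria with si-IAMP-1 (6 had an unadjusted p under 0.05, against 32.5% of all genes, and DESeq2 called 0), against 4.36% of all genes, and 2 with si-IAMP-2, against 7.51%. At the adjusted p alone these counts were 5 and 4, against 23.1% and 29.9%. Between the siRNAs 0 of 10 passed both criteria in edgeR and in DESeq2 (7 had an unadjusted p under 0.05, against 33.6% of all genes), against 3.96% of all genes. By the adjusted p alone Ptgs1 (0.58, SE 0.0649, adjusted p = 4.70e-06), Ptgs2 (0.49, SE 0.0469, adjusted p = 7.65e-07), Pla2g4a (0.27, SE 0.0468, adjusted p = 3.16e-04) and Ptgis (0.25, SE 0.0382, adjusted p = 1.10e-04) were higher with si-IAMP-2 than with si-IAMP-1. The Ptgs1 difference passed the 1.5-fold threshold without si-IAMP-1_TGF replicate 3 or si-IAMP-2_TGF replicate 1 (up to 0.63).

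**Figure D3:**
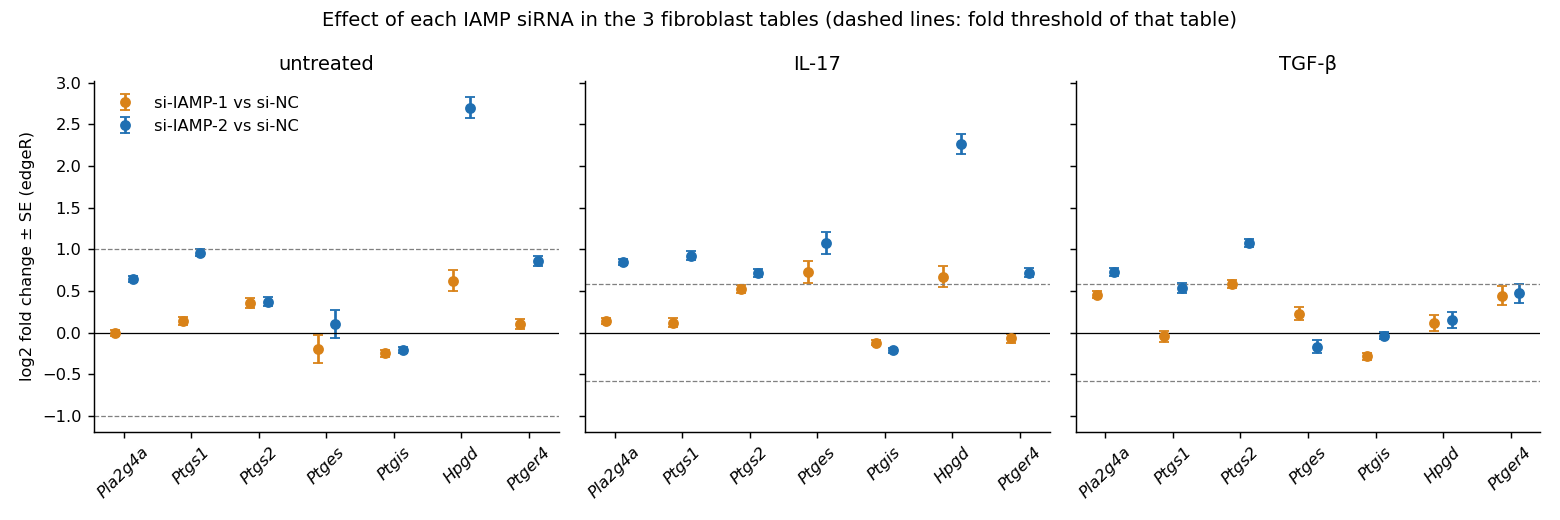
Log2 fold change of each IAMP siRNA against si-NC (points) with its SE in the 3 CF tables, 3 libraries per group, with dashed lines at the fold threshold of that table. Hpgd with si-IAMP-2 stands at 2.70 untreated, 2.27 with IL-17 and 0.15 with TGF-β.

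Markers of other cells are given beside these changes, since leukocytes also express prostanoid genes. By the adjusted p alone, 39.9% of all genes passed with si-IAMP-1 and 49.3% with si-IAMP-2 untreated, and 42.3% and 50.6% under IL-17. Past both criteria with si-IAMP-2 the shares were 10.7% untreated and 7.51% under TGF-β. The 8 macrophage markers summed to 24.6 to 27.5 CPM in untreated si-NC libraries, 27.4 to 28.0 CPM with si-IAMP-1 and 35.7 to 37.9 CPM with si-IAMP-2. The most abundant was Csf1r, at 9.43 ± 0.226, 13.3 ± 0.600 and 21.1 ± 0.545 CPM (SD, n = 3), and 1 of the 8 markers, Csf1r, passed both criteria with si-IAMP-2 in untreated cells. The leukocyte gene Ptprc was at 0.648 ± 0.261 CPM in si-NC and 0.675 ± 0.0683 CPM with si-IAMP-2, Adgre1 at 1.22 ± 0.190 and 1.14 ± 0.172 CPM, and C1qa at 2.15 ± 0.495 and 1.24 ± 0.292 CPM, where it was lower by the adjusted p (−0.81, SE 0.221, adjusted p = 0.00537). With IL-17 the macrophage sum was 26.3 to 27.6 CPM in si-NC and 35.9 to 39.3 CPM with si-IAMP-2, and C1qa again was lower (−0.75, SE 0.173, adjusted p = 0.00142). The mesothelial sum went from 141 to 157 CPM in si-NC to 88.4 to 94.0 CPM with si-IAMP-2 in untreated cells. The 6 mast cell markers summed to 2.84 to 3.50 CPM in si-NC, 4.35 to 5.79 CPM with si-IAMP-1 and 3.698 to 4.13 CPM with si-IAMP-2, led by Kit (2.23 ± 0.297, 3.86 ± 0.595 and 1.99 ± 0.195 CPM), with 2 of the 6 listed at 0. With si-IAMP-1 3 of the 4 mast cell markers tested were higher by the adjusted p, and with si-IAMP-2 2 (Cpa3 and Hdc) were higher and 1 (Mcpt4) lower past both criteria. Under IL-17 the sum was 3.68 to 4.59 CPM in si-NC and 6.52 to 7.26 CPM with si-IAMP-1. The endothelial sum was 68.4 to 71.7 CPM with si-IAMP-2 and 60.6 to 64.3 CPM with si-IAMP-1. The 6 smooth muscle and pericyte markers summed to 102 to 116 CPM in si-NC, 66.3 to 72.6 CPM with si-IAMP-1 and 53.3 to 66.4 CPM with si-IAMP-2, led by Cspg4, and the 6 cardiomyocyte markers, nearly all Tnnt2, to 90.5 to 98.0, 42.1 to 47.1 and 27.7 to 32.7 CPM. The 8 fibroblast markers summed to 12754 to 13139 CPM in si-NC, 18203 to 19037 CPM with si-IAMP-1 and 16845 to 17153 CPM with si-IAMP-2, where Col3a1 was the most abundant (8128 ± 11.6 CPM). By the adjusted p 4 of the 8 were higher and 1 lower with si-IAMP-1, and 3 higher and 4 lower with si-IAMP-2. Under IL-17 the mesothelial sum was 110 to 114 CPM in si-NC, 108 to 112 CPM with si-IAMP-1 and 69.1 to 73.2 CPM with si-IAMP-2. In the same order, the smooth muscle and pericyte sum was 153 to 158, 100.4 to 105 and 76.4 to 83.7 CPM. The cardiomyocyte sum was 69.7 to 76.8, 32.0 to 35.6 and 22.8 to 26.0 CPM, and the fibroblast sum 12456 to 12670, 17256 to 17868 and 16927 to 17651 CPM. By the adjusted p 3 of the 8 fibroblast markers were higher and 2 lower with si-IAMP-1 there, and 3 higher and 5 lower with si-IAMP-2. Under TGF-β the macrophage sum was 41.4 to 48.1 CPM in si-NC, 36.0 to 38.9 CPM with si-IAMP-1 and 43.0 to 44.1 CPM with si-IAMP-2, where 3 of 8 markers were lower past both criteria. The mesothelial sum there was 41.3 to 47.4, 29.5 to 33.9 and 23.3 to 30.2 CPM, with 3 of 6 markers lower past both criteria with si-IAMP-2. The smooth muscle and pericyte sum under TGF-β was 64.3 to 65.7 CPM in si-NC, 52.7 to 54.9 CPM with si-IAMP-1 and 55.4 to 57.0 CPM with si-IAMP-2. The endothelial sum there was 114 to 115, 123 to 124 and 113 to 119.8 CPM, in the same order. The part of these cells in the siRNA effects was not tested.

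Whether a stimulus changed the effect of an siRNA was tested as an interaction over all 27 CF libraries. Among the 7 members above the floor the largest such difference was in Hpgd. Its rise with si-IAMP-2 was smaller under TGF-β than in untreated cells, with a log2 difference of −2.57 (SE 0.157, adjusted p = 1.82e-14), and this is the 1 member interaction that passed both criteria. With si-IAMP-1 the Hpgd difference was −0.51 (SE 0.158, adjusted p = 0.0197). The opposite direction was seen for Ptges and IL-17, where the siRNA effect was larger by 0.93 (SE 0.176, adjusted p = 0.00165) with si-IAMP-1 and 0.98 (SE 0.175, adjusted p = 6.68e-04) with si-IAMP-2 than in untreated cells. The Ptges difference passed 1 with some libraries left out, namely si-NC replicate 2 or si-NC_IL17 replicate 1 with both siRNAs, replicate 2 of si-IAMP-1 or si-IAMP-1_IL17 with si-IAMP-1 (up to 1.03), and si-IAMP-2 replicate 1, si-NC_IL17 replicate 3 or si-IAMP-2_IL17 replicate 2 with si-IAMP-2 (up to 1.10). Ptgs2 gained with si-IAMP-2 under both stimuli, by 0.34 (SE 0.0828, adjusted p = 0.0286) with IL-17 and 0.68 (SE 0.0840, adjusted p = 5.82e-07) with TGF-β. Pla2g4a gained with si-IAMP-1 under TGF-β (0.45, SE 0.0592, adjusted p = 5.66e-07). With si-IAMP-2 under TGF-β, Ptgs1 (−0.44, SE 0.0830, adjusted p = 8.08e-05) and Ptger4 (−0.41, SE 0.130, adjusted p = 0.0166) rose by less than in untreated cells, and the small fall of Ptgis was lessened (0.15, SE 0.0534, adjusted p = 0.0295). At the adjusted p alone 1 and 2 of 10 members passed for IL-17 with si-IAMP-1 and si-IAMP-2, against 1.73% and 1.64% of all genes, and 2 and 5 for TGF-β, against 19.5% and 29.5%. Past both criteria these counts were 0, 0, 0 and 1, against 0.17%, 0.174%, 2.31% and 4.95%. DESeq2 gave 0, 0, 0 and 2, and 5, 4, 6 and 6 members had an unadjusted p under 0.05 in edgeR, against 11.1%, 9.41%, 28.9% and 37.3% of all genes.

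The folds of Ptgds, Ptger2 and Ptgfr in CFs were not used, since their medians lay under 60 estimated counts. Ptgds, the lipocalin-type prostaglandin D synthase, had estimated counts of 12, 46 and 26 in untreated si-NC and 0, 0 and 18 with si-IAMP-2, and at most 52 in any CF library. It was listed at 0 in all 3 si-IAMP-2 libraries with IL-17, against 21, 0 and 32 in their controls, and this is the lower call named above. Ptger2 ran from 0 to 46 estimated counts over the 27 libraries. Ptgfr had 0, 0 and 12 estimated counts in untreated si-NC, 35, 17 and 27 with si-IAMP-1, 37, 29 and 11 with si-IAMP-2, 23, 35 and 22 with IL-17 and 79, 72 and 61 with IL-17 and si-IAMP-2. The last of these groups holds the highest Ptgfr values in CFs, and the untreated si-NC libraries lie under the floor.

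The wider pathway was followed in 54 further genes, other phospholipases A2, prostanoid synthases and receptors, transporters and reductases, and the leukotriene branch. In untreated cells 1 was higher and 3 lower past both criteria with si-IAMP-1, and 3 higher and 8 lower with si-IAMP-2, of 39 tested, against 4.76% and 10.7% of all genes. Alox5, the lipoxygenase that starts leukotriene synthesis, fell with both siRNAs, from 1.69 ± 0.427 CPM to 0.334 ± 0.172 and 0.463 ± 0.0776 CPM (SD, n = 3), with log2 fold changes of −2.34 (SE 0.342, adjusted p = 3.05e-05) and −1.89 (SE 0.333, adjusted p = 1.36e-04). It was also lower with IL-17 (−2.22 and −1.62) and TGF-β (−0.71 and −0.76). Pla2g2e, a secreted phospholipase A2, was higher with si-IAMP-2 untreated (1.28, SE 0.161, adjusted p = 3.64e-06), with both siRNAs under IL-17 (1.06, SE 0.176, adjusted p = 9.31e-05, and 1.26, SE 0.176, adjusted p = 9.51e-06) and with si-IAMP-2 under TGF-β (0.71, SE 0.0814, adjusted p = 2.98e-06). Tbxa2r, the thromboxane receptor, fell with si-IAMP-2 untreated (−1.46, SE 0.175, adjusted p = 2.02e-06) and under TGF-β (−1.16, SE 0.0748, adjusted p = 2.95e-09). Cbr2, a carbonyl reductase, fell with si-IAMP-2 in all 3 tables (−1.11, −1.26 and −2.13), and with si-IAMP-1 under IL-17 (−0.74) and TGF-β (−0.71).

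With IL-17, 2 of the 39 tested were higher and 4 lower past both criteria with si-IAMP-1, and 7 higher and 4 lower with si-IAMP-2, against 13.5% and 21.7% of all genes. Cbr1, which reduces prostaglandin E, was lower with si-IAMP-1 (−0.67, SE 0.0708, adjusted p = 6.29e-07). Ptges2, another prostaglandin E synthase, rose with si-IAMP-2 from 19.3 ± 1.22 to 31.5 ± 0.811 CPM (0.69, SE 0.0608, adjusted p = 3.57e-08), Akr1b8 rose likewise (0.68, SE 0.0373, adjusted p = 7.49e-11), and Pla2g4b was lower (−1.09, SE 0.298, adjusted p = 0.0052). Ptgs2os, a noncoding gene that starts on the opposite strand, with 67 bases between its start and that of Ptgs2, and runs away from it, was at 0.893 ± 0.103 CPM in si-NC, 2.103 ± 0.101 CPM with si-IAMP-1 and 1.39 ± 0.106 CPM with si-IAMP-2, with log2 fold changes of 1.22 (SE 0.187, adjusted p = 3.84e-05) and 0.61 (SE 0.187, adjusted p = 0.0108). Under TGF-β, 4 of 40 were higher and 2 lower with si-IAMP-1, and 3 higher and 4 lower with si-IAMP-2, against 4.36% and 7.51% of all genes. There Ptgir, the prostacyclin receptor, rose with si-IAMP-1 (0.85, SE 0.0658, adjusted p = 4.70e-08), and Abcc4, an exporter of prostaglandins, rose with si-IAMP-1 (0.80, SE 0.0528, adjusted p = 7.32e-09) and si-IAMP-2 (0.67, SE 0.0528, adjusted p = 3.87e-08). Between the siRNAs, Cbr1 was higher with si-IAMP-2 untreated (1.04) and under IL-17 (1.01), and Cbr2 (−1.42) and Tbxa2r (−0.88) were lower with si-IAMP-2 under TGF-β. The fall of Alox5 was smaller under TGF-β than untreated (log2 differences of 1.62 and 1.10), and that of Cbr2 with si-IAMP-2 larger (−1.04). Slco3a1, another transporter, rose with si-IAMP-1 under TGF-β (0.66, SE 0.0608, adjusted p = 3.92e-06).

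The wider pathway was also compared between stimuli. With IL-17, 0 of 42 tested genes were higher and 1 lower past both criteria, against 1.46% of all genes, and 11.9% passed the adjusted p alone, against 12.2%. The 1 gene was Tbxa2r (−1.03, SE 0.189, adjusted p = 2.04e-04). With TGF-β, 12 of 42 were higher and 3 lower, against 20.8% of all genes past both criteria. Tbxa2r rose from 2.53 ± 0.265 to 18.8 ± 1.66 CPM (2.89, SE 0.185, adjusted p = 5.61e-14), Pla2g2e from 1.205 ± 0.137 to 8.59 ± 0.973 CPM (2.83, SE 0.121, adjusted p = 1.27e-19) and Pla2g7, the lipoprotein-associated phospholipase A2, to 4.21 ± 1.18 CPM (2.53, SE 0.307, adjusted p = 1.57e-08). The aldo-keto reductases Akr1b3 (1.29, SE 0.0495, adjusted p = 4.27e-20) and Akr1b8 (1.13, SE 0.0408, adjusted p = 1.42e-21) rose. Slco2a1, the prostaglandin uptake transporter, fell from 245 ± 9.43 to 64.3 ± 0.662 CPM (−1.93, SE 0.0364, adjusted p = 9.80e-29).

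In hearts none of the 9 members tested passed the test between KO and Het. Ptger2, at 3 to 8 counts per heart, was not tested, and for the other 9 the adjusted p was 1.0 when rounded. The values of the 2 groups overlapped for every member, and 0 members had an unadjusted p under 0.05. No gene of the table passed both criteria in edgeR (0% of 16675), 601 genes had an unadjusted p under 0.05 (3.6%), 1 gene passed in each of 4 of the 8 fits with 1 heart left out, in no case a member, and DESeq2 called 3 genes, none of them a member. Of the cell type markers 0 passed the adjusted p in hearts either, and the fibroblast sum was 618 to 927 CPM in Het and 779 to 832 CPM in KO. Ptgds ran from 158 to 302 CPM in Het and 156 to 303 CPM in KO, with a log2 fold change of 0.02 (95% interval −0.58 to 0.63). Ptgis was at 13.4, 14.1, 18.6 and 22.5 CPM in Het and 14.8, 16.4, 14.8 and 15.6 CPM in KO (−0.16, 95% interval −0.50 to 0.18), and Ptgs1 at 12.2, 9.099, 11.5 and 11.5 and 11.5, 14.1, 12.7 and 11.6 CPM (0.17, −0.06 to 0.40). Ptgs2 was scarce, with 12 to 29 counts per heart and a log2 fold change of −0.01 (95% interval −0.73 to 0.70), and Ptges had 18 to 48 counts (−0.05, −0.61 to 0.52). Hpgd (0.10, 95% interval −0.28 to 0.49), Ptger4 (−0.16, −0.52 to 0.20), Ptgfr (0.09, −0.26 to 0.44) and Pla2g4a (0.10, −0.25 to 0.45) had intervals that span 0.

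**Figure D4:**
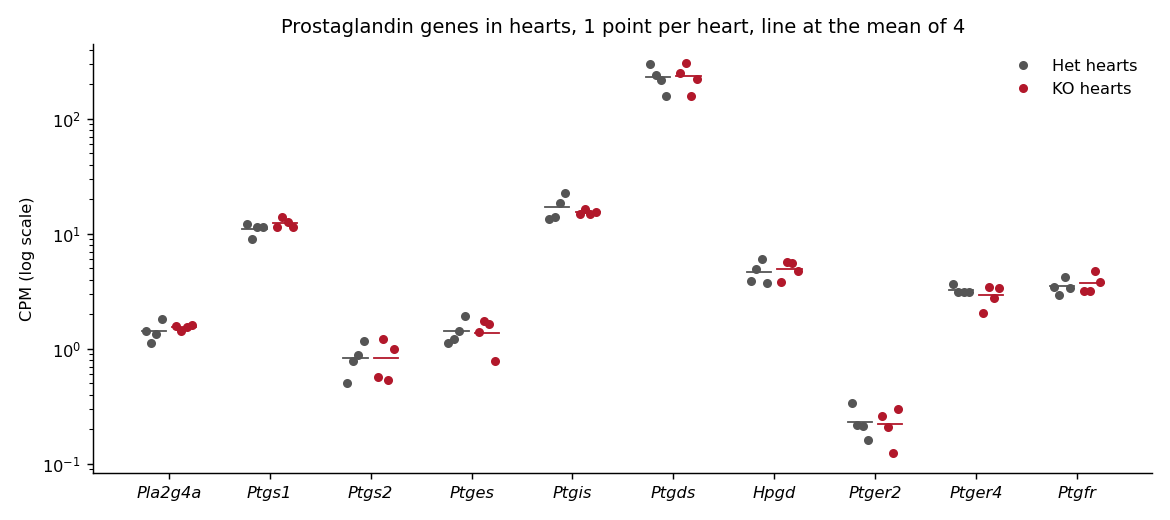
CPM on a log scale for the 10 members in each Het and KO heart (points), with a line at the mean of 4 hearts. Ptgds lies above 150 CPM in all 8 hearts, and the 2 groups overlap for every gene.

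The order of levels in hearts was unlike that in CFs. Per kilobase of exon in Het hearts, Ptgds was the highest at 139 ± 36.1 CPM per kb (SD, n = 4), followed by Ptgis at 6.68 ± 1.66, Ptgs1 at 2.86 ± 0.353 and Hpgd at 2.75 ± 0.621 CPM per kb, and the last 2 did not differ beyond their spread. Ptgfr (0.516 ± 0.0813), Ptger4 (0.490 ± 0.0426) and Ptges (0.363 ± 0.0903 CPM per kb) were next, with overlapping spreads of neighbours, and Pla2g4a (0.224 ± 0.0436), Ptgs2 (0.182 ± 0.0596) and Ptger2 (0.0445 ± 0.0142 CPM per kb) were the lowest, the first pair of them within their spread. Ptgs2, the second of the 10 in untreated si-NC CFs, ranked 9 of 10 in Het hearts. The CF and heart tables were normalized apart and differ in tissue, culture and counting, so these levels are set side by side without a test.

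Among the 13330 genes that averaged 1 CPM or more, those whose log2 CPM followed each member most closely over the 27 CF libraries were Rnd1, Prpf38b and Nav3 for Ptgs2 (Pearson's r 0.988, 0.982 and 0.979), Il1a, Kcnn3 and Tnip1 for Ptges (0.969, 0.960 and 0.958), and Fbrs, Ppil2 and Syngr2 for Hpgd (0.971, 0.964 and 0.960). They were Ppp1ca, Efhd2 and Nln for Ptgs1 (0.988, 0.987 and 0.984), Selenop, Ugdh and Abcd3 for Ptger4 (0.987, 0.986 and 0.986), Ptpn12, Dnaja2 and Rrs1 for Pla2g4a (0.976, 0.968 and 0.965) and, for Ptgis, Arpc5l (0.942). Within the members, Ptgs1 and Ptger4 were the closest pair (r = 0.958), followed by Ptgs1 and Pla2g4a (0.913), while Ptges ran against Ptger4 (−0.659). These coefficients describe 27 libraries in 9 groups that share experiments and are no test.

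Counting can touch some of these values. In GENCODE vM21, 5 of the 10 members share exon bases with a gene on the opposite strand, and the strand setting of the counting was not found. They are Ptgs1 (148 of 3884 bases), Ptgis (156 of 2567), Ptgfr (329 of 6778), Ptger2 and Ptger4, the last with 1015 of its 6648 exon bases shared with a processed pseudogene, Gm15937. Ptgs2, Ptges, Hpgd, Pla2g4a and Ptgds share none.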

How the data were processed

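RNA-Seq of cardiac fibroblasts (27 libraries) and whole hearts (8 libraries) was used. Per the labels and the methods of the study, mRNA was selected with oligo(dT), and reads were trimmed with cutadapt, aligned to GRCm38 with HISAT2 and quantified by the authors with StringTie. How strand was set, which annotation release was used and how whole numbers arose are not given in the sources used here. The deposited fibroblast values are whole estimated counts per gene, and the most frequent value of genes seen in 1 library only is 6, which was taken as 1 read pair. The deposited heart values are read counts per gene. Floors cover counting error only, while SEs and 95% intervals come from the edgeR fits and include the spread between libraries or hearts.

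In the untreated and IL-17 columns the siRNAs are named by code, and the codes were tied to si-IAMP-1 and si-IAMP-2 through the descriptions of the TGF-β samples. Heart columns name a genotype and were mapped to groups only. Tests used edgeR 4.0.16 in R 4.3.3 (robust quasi-likelihood fit, TMM, filterByExpr, Benjamini-Hochberg adjustment over all genes tested), on 19669 genes untreated, 19906 with IL-17, 19891 with TGF-β, 16675 in hearts and 22359 over the 27 libraries (stimuli and interactions). Genes were called at an adjusted p up to 0.05 with a log2 fold change of 1 or more in either direction, or a 1.5-fold change for siRNAs under IL-17 and TGF-β. CPM came from TMM over the 27 fibroblast libraries and, apart, over the hearts, and lengths from GENCODE vM21. The edgeR tests were also run on simulated data, and the outcome is not reported here. Alternatives were DESeq2 1.42.0, RLE size factors, other filters, the replicate number as a block, counts divided by 6, fewer groups in the fit, the other fold threshold and leaving out each library.

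All members were tested in every comparison except Ptger2 in hearts, and folds and p-values are printed for members above the floor that passed the adjusted p. Of the wider pathway, genes past the threshold with a mean of at least 1 CPM were named, at most 6 per comparison by absolute log2 fold change, and Ptgs2os with si-IAMP-2, outside those 6, was added after its values were seen. The members and lists were chosen with earlier results of these data known. No pair of libraries was identical. For Ptgis, only the gene closest in pattern is given, and the others are not reported here.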

Additional observations from a re-analysis of the deposited data

Results flagged for a closer look

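Hpgd, the prostaglandin dehydrogenase, is listed here because its response to si-IAMP-2 differed between TGF-β and untreated cells by the interaction test, with a log2 difference of −2.57 (adjusted p = 1.82e-14, edgeR). The level with si-IAMP-2 was 8.08 to 9.36 CPM under TGF-β and 9.08 to 10.3 CPM untreated, and the si-NC levels were 7.12 to 8.45 and 1.34 to 1.58 CPM.

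Ptger4 in Het hearts is listed because 1 of the 4 hearts stood apart from the others, at 3.68 CPM against 3.14 CPM for the next. It was the 1 such heart among the 20 groups of hearts examined, and chance gives about 1 in 20. The KO hearts overlapped the Het hearts for this gene.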

How the results depend on the processing

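Of 24 calls of members above the floor, 0 reversed in any setting and 0 were lost with another tool, scaling, filter or fit, while the other fold threshold and the removal of 1 library ended some. With no filter, at least 10 counts in every library, the replicate block, counts divided by 6 or only the 2 groups compared, the count of members called in untreated cells went from 1 to 0 with si-IAMP-1 and from 2 to 1 with si-IAMP-2. Ptgds (0 with si-IAMP-2 and IL-17) and Ptgfr (7 in si-IAMP-1_IL17 replicate 3, 0 in si-NC replicate 1) cannot reach 10 counts in every library. That filter therefore also removes their calls under IL-17 and that of Ptgfr with IL-17 against untreated. At a 1.5-fold threshold these counts were 2 and 5 (12.1% and 21.1% of all genes), that between the siRNAs was 4 (15.9%), that with TGF-β against untreated 6 with Pla2g4a (33.8%), those of the IL-17 interactions were 1 and 1 (0.394% and 0.487%), and that of si-IAMP-2 and TGF-β was 2 (11.2%), as it was in DESeq2 and with counts divided by 6. At a log2 threshold of 1, the counts under IL-17 were 0 with si-IAMP-1 (5.82%), 4 with si-IAMP-2 (11.3%) and 2 between them (6.45%), and 1 with si-IAMP-2 under TGF-β (2.95%). With only the 2 groups compared, 1 member was called under TGF-β with si-IAMP-1 and 1 between the siRNAs. The causes were not tested.

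Leaving out each library gave 0 to 1 members called with si-IAMP-1 and 1 to 3 with si-IAMP-2 in untreated cells, and 1 to 2 between them. Under IL-17 these ranges were 1 to 2, 6 to 8 and 4 to 6, and under TGF-β 0 to 1, 2 to 3 and 0 to 1. They were 2 to 3 for IL-17, 5 to 6 for TGF-β, 0 to 1 for 3 of the interactions, 1 to 3 for si-IAMP-2 and TGF-β, and 0 in hearts. Values that changed sign had not passed the test. Pla2g4a with si-IAMP-1 in untreated cells was 0.00696 with no filter and 0.00675 with only the 2 groups compared, and −0.0197 to 0.0258 with 1 library left out. On the same terms the log2 differences between the siRNAs were −0.0147 to 0.0373 for Ptgs2 untreated, and −0.0159 to 0.0946 for Hpgd and −0.0387 to 0.118 for Ptger4 under TGF-β. Ptgis with IL-17 was −0.0335 to 0.0476. In hearts the ranges were −0.27 to 0.19 for Ptgs2, −0.17 to 0.15 for Ptges, −0.26 to 0.00154 for Ptgis, −0.13 to 0.18 for Ptgds and −0.0517 to 0.192 for Ptgfr.

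No effect shared by same-numbered fibroblast libraries was seen, since their deviations correlated at −0.184 to 0.159 and those of others at −0.204 to 0.227. That does not settle whether same-numbered libraries were matched. The replicate block gave the counts above and changed no other. No paired analysis was possible in hearts because the columns carry no replicate numbers of the labels. Low counts limit Ptgds, Ptger2 and Ptgfr in fibroblasts and Ptger2 in hearts.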

Other observations

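Hpgds, the hematopoietic prostaglandin D synthase, had the lowest p of the 16675 genes tested in hearts, and it was singled out after its values were seen. Its counts were 22, 21, 20 and 19 in the Het hearts and 8, 5, 6 and 7 in the KO hearts, so that the groups did not overlap. Because the gene was picked for its low p, this separation is no support of its own. The log2 fold change was −1.62 (SE 0.217, unadjusted p = 1.67e-05) and it did not pass after adjustment over all genes (edgeR, adjusted p = 0.279). The adjusted p was 0.449 in DESeq2, 0.280 with RLE size factors and 0.445 with no filter, and leaving out each heart gave log2 fold changes of −1.75 to −1.51 with adjusted p of 0.321 to 0.860. The markers of macrophages and mast cells, which can express Hpgds, overlapped between the groups, with summed levels of 154 to 182 and 5.92 to 6.36 CPM in Het and 141 to 171 and 5.28 to 6.49 CPM in KO, and their part in the Hpgds values was not tested. The lipocalin-type synthase Ptgds overlapped between the groups.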
